A study of Mus musculus with 4 samples.

Results

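The small leucine-rich proteoglycans are secreted proteins of the extracellular matrix. The 10 genes followed here, Dcn, Bgn, Lum, Fmod, Ogn, Omd, Prelp, Aspn, Kera and Podn, were taken by symbol from the FPKM table, and each had a single row among the 24487 rows. FPKM are fragments scaled by transcript length and by the number of mapped fragments, so levels can be set side by side between genes. The members were taken by family, but the list was proposed with earlier results of these data known. The 4 libraries came from mesenchymal stem/progenitor cells (MSPC), adherent stromal cells grown out of mouse bone marrow. Of these, 2 libraries were from Asxl1-/- cells and 2 from wild-type (WT) cells, all on a C57BL/6 background and at passages 5 to 10. The cells were kept in MesenCult medium with 20% supplement. Asxl1 encodes a Polycomb-associated chromatin regulator that binds the deubiquitinase BAP1, and the title of the series asks how its loss bears on self-renewal and cell fate of the stroma. Neither the source animals nor the way the allele was made is given in the labels. The p-values below therefore rest on the spread between these 4 libraries, which may be technical.

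Each protein of the family is a curved stack of leucine-rich repeats that binds collagen, and most carry sugar chains, chondroitin or dermatan sulfate in class I and keratan sulfate in class II. They set the width and spacing of collagen fibrils and hold growth factors such as TGF-beta in the matrix. In bone and tendon, biglycan (Bgn) and fibromodulin (Fmod) are known from mouse knockouts to affect the number and fate of stromal progenitors.

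The level of Asxl1 itself was 0.273 and 0.312 FPKM in Asxl1-/- replicates 1 and 2 and 14.6 and 11.2 FPKM in WT replicates 1 and 2, so each library fits its label. Between 10951 and 11363 rows reached 1 FPKM per library. The number of reads is unknown, and from the steps of low values the depths of the Asxl1-/- libraries were 1.03 and 0.956 times that of WT replicate 1, and that of WT replicate 2 was 0.984 times. Stromal markers were present, with summed levels of 8887 and 6256 FPKM in Asxl1-/- and 6194 and 8602 FPKM in WT. Of the 14, 11 and 11 reached 1 FPKM in Asxl1-/-, and 13 and 12 in WT. Lepr, a receptor gene of perivascular stroma in fresh marrow, reached at most 0.0426 FPKM. Eng stood at 0.906 and 0.571 FPKM in Asxl1-/- and 10.7 and 0.912 FPKM in WT. Nt5e stood at 0.493 and 0.507 FPKM in Asxl1-/- and 2.31 and 7.19 FPKM in WT. Pdgfra stood at 58.8 and 63.0 FPKM in Asxl1-/- and 80.9 and 4.78 FPKM in WT. Of 13 stromal markers averaging 1 FPKM or more, 3 were higher (23.1%) and 4 lower (30.8%) without overlap. Of all genes, 15.6% and 25.2% were. The higher ones were Pdgfrb, Col3a1 and Cxcl12, with Cxcl12 at 1297 and 947 FPKM in Asxl1-/- and 641 and 744 FPKM in WT. Eng and Nt5e, among the 4 lower, reached that mean only through WT. Macrophage markers differed between the replicates of both groups. All 18 summed to 87.4 and 393 FPKM in Asxl1-/-, with 72.2 FPKM of the first from Fcer1g alone, and to 7.74 and 583 FPKM in WT. Of the 18, 4 and 15 reached 1 FPKM in Asxl1-/-, against 3 and 15 in WT. Endothelial markers summed to 0.641 and 8.15 FPKM in Asxl1-/-, with 7.11 FPKM of the second from Cdh5, and to 0.53 and 0.29 FPKM in WT, with Emcn and Tie1 listed at 0 in every library. Erythroid and lymphoid markers summed to at most 0.322 FPKM. In bulk RNA, fewer cells of a type and less RNA per cell cannot be told apart.

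Of the 10 members, 8 lie beside another member in the genome. Aspn, Omd and Ogn stand in a row on the plus strand of mm10 chromosome 13 (49544443 to 49567562, 49582747 to 49592609 and 49608071 to 49624500), with the related gene Ecm2 next to Aspn. This whole row lies inside the span of Cenpp, a centromere protein gene on the opposite strand. Dcn, Lum and Kera stand in a row on the plus strand of chromosome 10 (97479500 to 97518162, 97565501 to 97572703 and 97607205 to 97613688), followed by Epyc. On chromosome 1, Prelp (133910304 to 133921401, minus strand) lies 116 kb before Fmod (134037515 to 134048277, plus strand). Bgn (chromosome X, 73483635 to 73495936) and Podn (chromosome 4, 108014793 to 108032090) lie alone. An exon of Aspn overlaps one of Cenpp, and an exon of Prelp overlaps the antisense gene model Gm15851. The strandedness of the libraries is not given in the sources used here, so reads of these overlapping pairs cannot be told apart.

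RefSeq promoter sequences (build GRCm38.p6, which is mm10) were matched for 8 of the 10 members. The 250 bases before the start are shown for the 3 neighbours on chromosome 13, because the groups of Ogn and Omd did not overlap while those of Aspn, at the end of the row, did, and for Fmod and Bgn, whose groups did not overlap either. The groups of Podn did not overlap as well, but it has 2 RefSeq starts, the window of one of which holds an exon of Podn itself, and neither is shown. Capitals mark the TATA box (TATAAA), the CCAAT box (CCAAT), the GC box (GGGCGG) and the Runx core (TGTGGT), on either strand. The windows are chr13:49544193-49544442 for Aspn, chr13:49582212-49582461 for Omd, chr13:49607765-49608014 for Ogn, chr1:134037004-134037253 for Fmod and chrX:73483351-73483600 for Bgn, all on the plus strand.
Aspn: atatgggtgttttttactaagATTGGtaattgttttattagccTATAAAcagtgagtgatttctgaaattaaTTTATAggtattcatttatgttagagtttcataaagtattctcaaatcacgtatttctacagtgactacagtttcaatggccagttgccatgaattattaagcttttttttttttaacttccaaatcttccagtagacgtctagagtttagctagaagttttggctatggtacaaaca
Omd: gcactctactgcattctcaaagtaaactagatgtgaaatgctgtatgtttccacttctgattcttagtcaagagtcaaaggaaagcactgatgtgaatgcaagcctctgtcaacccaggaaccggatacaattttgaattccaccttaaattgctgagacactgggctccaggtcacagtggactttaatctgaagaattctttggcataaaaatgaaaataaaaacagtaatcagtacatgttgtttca
Ogn: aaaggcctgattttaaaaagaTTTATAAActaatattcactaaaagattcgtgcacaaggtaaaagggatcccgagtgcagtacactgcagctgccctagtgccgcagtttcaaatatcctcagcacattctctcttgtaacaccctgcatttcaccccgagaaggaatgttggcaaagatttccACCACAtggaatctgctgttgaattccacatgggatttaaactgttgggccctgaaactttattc
Fmod: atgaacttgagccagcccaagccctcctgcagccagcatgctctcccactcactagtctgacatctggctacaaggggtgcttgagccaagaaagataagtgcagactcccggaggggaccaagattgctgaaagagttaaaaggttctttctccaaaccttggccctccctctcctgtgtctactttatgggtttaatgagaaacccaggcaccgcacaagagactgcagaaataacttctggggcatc
Bgn: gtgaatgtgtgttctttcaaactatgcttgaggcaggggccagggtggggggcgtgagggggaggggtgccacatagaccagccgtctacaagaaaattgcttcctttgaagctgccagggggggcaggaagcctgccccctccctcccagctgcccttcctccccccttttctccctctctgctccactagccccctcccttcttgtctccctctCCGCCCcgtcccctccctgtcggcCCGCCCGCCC
The window of Aspn held TATAAA at 2 places and CCAAT at 1. That of Ogn held 2 overlapping matches of TATAAA and 1 of TGTGGT, and that of Bgn held 3 of GGGCGG, with the last 2 overlapping. Those of Omd and Fmod held none of the 4 motifs. Over 32851 windows of this length, 12.4% held TATAAA, 33.8% CCAAT, 32.7% GGGCGG and 14% TGTGGT. CpG pairs numbered 2 in the window of Aspn, 1 for Omd, 4 for Ogn, 2 for Fmod and 7 for Bgn, against a median of 6 over all windows. The starts of the file lie 261 bp (Fmod) and 285 bp (Omd) inside those of RefSeq, 56 bp for Ogn and 34 bp for Bgn, and coincide for Aspn.

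The first question was how much of each transcript the cells held. Bgn, a class I member with a pair of chondroitin or dermatan sulfate chains, was the highest of the 10 in every library. It made up 90.5% and 71.4% of the summed FPKM of the 10 in Asxl1-/- and 66.7% and 82.8% in WT, and ranked 14 and 10 among all rows in Asxl1-/- and 28 and 21 in WT. Ogn (osteoglycin), the class III member, held 7.36% and 4.12% of the sum in Asxl1-/- against 21.3% and 11% in WT. Dcn (decorin), the close relative of Bgn with a single chain, held 1.03% and 18.5% in Asxl1-/- against 2.64% and 2.17% in WT, so Asxl1-/- replicate 2 stood apart. In that library Dcn was second to Bgn, and in the other 3 Ogn was second. Kera (keratocan), best known from the cornea, was the lowest of the 10 in every library. The 10 together summed to 2779 and 3357 FPKM in Asxl1-/- and 2524 and 2856 FPKM in WT, so the sums of the groups overlapped. As a share of the FPKM of all rows, they held 0.502% and 0.675% in Asxl1-/- and 0.448% and 0.406% in WT, without overlap. All rows summed to 553089 and 497340 FPKM in Asxl1-/- and 563749 and 703730 FPKM in WT, so the overlap depends on the scaling. Without Bgn the other 9 summed to 262.8 and 959.7 FPKM in Asxl1-/- and 842 and 491 FPKM in WT, so both WT libraries lay between the Asxl1-/- libraries.

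**Figure D1:**
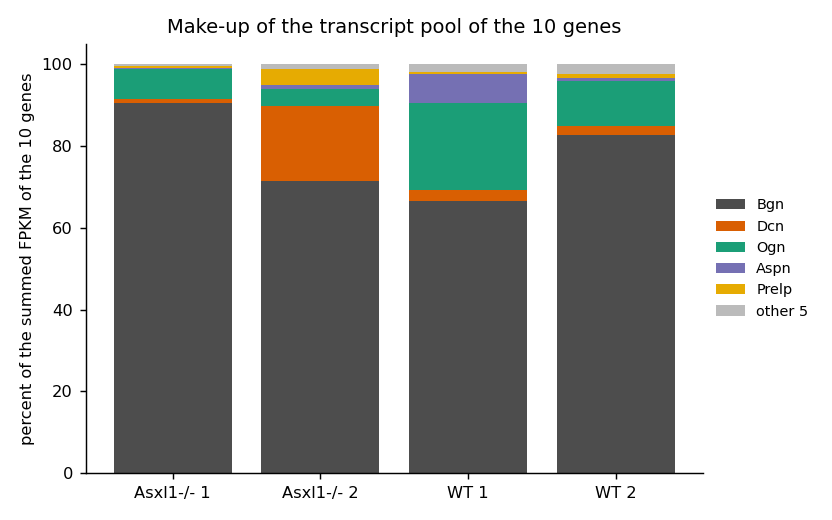
Make-up of the transcript pool of the 10 genes, as percent of their summed FPKM (vertical axis), in Asxl1-/- replicates 1 and 2 and WT replicates 1 and 2. Bgn fills 90.5% and 71.4% of the Asxl1-/- bars and 66.7% and 82.8% of the WT bars, and a large Dcn part of 18.5% is seen in Asxl1-/- replicate 2.

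The second question was whether the members differed between Asxl1-/- and WT cells. Genes were tested with limma on log2(FPKM + 1), at an adjusted p of 0.05 over 11485 genes, those that averaged 1 FPKM or more. Kera, with a mean of 0.613 FPKM, did not enter, so 9 of the 10 members were tested. None of the 9 passed. Over all genes 0.0261% were called, 3 in all and all lower. Asxl1 itself, with a log2 difference of -3.41 and a standard error of 0.29, did not pass (limma adjusted p = 0.215), so a member that misses the threshold may still differ. At an unadjusted limma p under 0.05 there were 2 members, Ogn and Podn, both lower. At that p 7.91% of all genes stood, 5.41% lower and 2.51% higher. For 4 of the 9 (44.4%), Fmod, Ogn, Omd and Podn, the higher Asxl1-/- value was under the lower WT value, where the same was true of 25.2% of all genes. The reverse order was seen for 1 of the 9 (11.1%), Bgn, and for 15.6% of all genes. With median ratio scaling or quantile normalization, chosen for this count after seeing the data, these were the same 4 and the same 1, with backgrounds of 19.8% and 20.1% for lower and 21.4% and 20.7% for higher. Those scalings also moved the share of higher genes among all with an unadjusted limma p under 0.05 to 46.6% and 42.9%, where it was 31.7% without scaling. The median log2 difference of the 9, Asxl1-/- minus WT, was -1.16, with 6 negative and 3 positive, against -0.07 over all genes tested. Without Asxl1-/- replicate 1 the median of the 9 was -0.36.

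**Figure D2:**
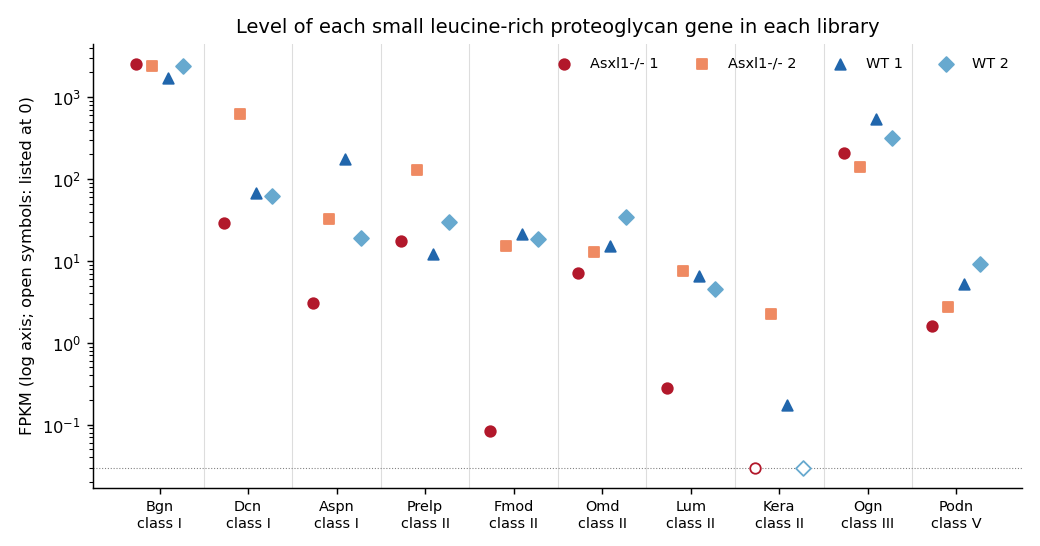
FPKM (log axis) of each member in Asxl1-/- replicates 1 and 2 and WT replicates 1 and 2, with one symbol per library. Open symbols on the dotted line mark values listed at 0. Fmod, Omd, Ogn and Podn lie lower in both Asxl1-/- libraries than in both WT libraries, and Asxl1-/- replicate 1 is the lowest library for 7 of the 10 genes, with Kera tied at 0 with WT replicate 2.

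**Figure D3:**
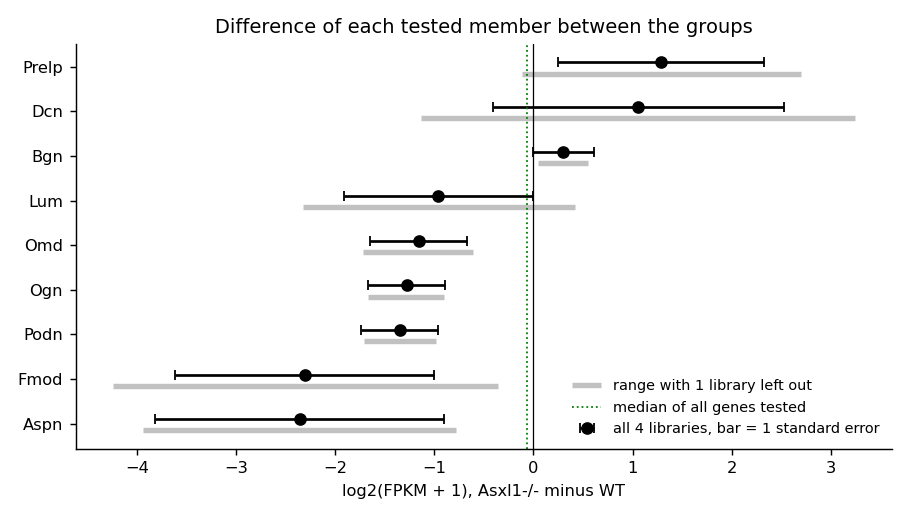
Log2 difference of the 9 tested members, Asxl1-/- minus WT, on the log2(FPKM + 1) scale. Points with bars of 1 standard error use all 4 libraries, grey bars span the 4 fits with 1 library left out, and the dotted line is the median of all genes tested (-0.07). The grey bars of Dcn, Lum and Prelp cross 0.

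Ogn and Podn had the smallest p-values of the 9 tested members. Ogn, whose product circulates and is also secreted by bone and muscle, stood at 205 and 138 FPKM in Asxl1-/- replicates 1 and 2, against 538 and 314 FPKM in WT replicates 1 and 2. The groups did not overlap, and the means were 171 ± 46.8 FPKM in Asxl1-/- and 426 ± 158 FPKM in WT (SD, n = 2 each). Its log2 difference was -1.28 with a standard error of 0.39 (limma adjusted p = 0.566). Podn (podocan), the class V member, is a collagen-binding protein that restrains smooth muscle growth in mice. It stood at 1.60 and 2.74 FPKM in Asxl1-/- and at 5.16 and 9.23 FPKM in WT, again without overlap, with a log2 difference of -1.35 and a standard error of 0.39 (limma adjusted p = 0.562). With 1 library left out the differences ran from -1.67 to -0.90 for Ogn and from -1.71 to -0.98 for Podn, all negative.

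Omd (osteomodulin), a keratan sulfate member of class II that is enriched in bone, stood at 7.20 and 12.96 FPKM in Asxl1-/- and at 15.3 and 34.2 FPKM in WT. The highest Asxl1-/- library lay just under the lowest WT library. Its log2 difference was -1.16 with a standard error of 0.49 (limma adjusted p = 0.632), and it ran from -1.72 to -0.61 with 1 library left out. Osteoblast markers, beside which Omd is usually listed, summed to 776 and 2288 FPKM in Asxl1-/- and 1378 and 2589 FPKM in WT, nearly all of it Spp1. Of the 9 markers 5 were tested. Alpl stood at 0.0160 and 0 FPKM in Asxl1-/- and 0.214 and 5.03 FPKM in WT. Dmp1 stood at 0 and 0.328 FPKM in Asxl1-/- and 0.806 and 5.60 FPKM in WT. Bglap2 stood at 0 and 0.168 FPKM in Asxl1-/- and 0 and 4.24 FPKM in WT. These genes reached the mean of 1 FPKM only through WT, so their negative log2 differences were fixed by the filter. No count or median of the list is therefore read. Spp1 had a log2 difference of -0.49 (standard error 0.65), with overlap. Runx2, the master regulator of osteoblasts, stood at 5.73 and 7.32 FPKM in Asxl1-/- and 13.6 and 17.6 FPKM in WT (log2 difference -1.14, standard error 0.26, limma adjusted p = 0.516). The bone genes Bglap and Ibsp were listed at 0 in all libraries but WT replicate 2, which was also the library with the most Omd. The part of osteoblast-like cells in the level of Omd was not tested.

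Fmod (fibromodulin), which shares a collagen binding site with lumican and delays fibril growth, stood at 0.0837 and 15.1 FPKM in Asxl1-/- and at 21.1 and 18.4 FPKM in WT. The WT libraries were close, whereas Asxl1-/- replicate 2 held 181 times the FPKM of replicate 1. The log2 difference of -2.31 (standard error 1.31, limma adjusted p = 0.688) rested on replicate 1: without it the difference was -0.36, and without Asxl1-/- replicate 2 it was -4.25. Lum (lumican) showed the same low library. It stood at 0.279 and 7.57 FPKM in Asxl1-/- and at 6.54 and 4.48 FPKM in WT, with overlap, and its log2 difference of -0.96 (standard error 0.95, limma adjusted p = 0.816) was 0.42 without Asxl1-/- replicate 1. The ratio of Fmod to Lum, which needs no scaling between libraries, was 0.301 and 2.00 in Asxl1-/- against 3.23 and 4.11 in WT. Both genes were under 1 FPKM in Asxl1-/- replicate 1, so the ratio of 0.301 and the 181-fold gap rest on very low levels and are imprecise.

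Aspn (asporin), a class I protein that binds collagen and calcium and opposes TGF-beta, had the widest gap between the WT libraries of the 9 tested members. It stood at 3.05 and 32.2 FPKM in Asxl1-/- and at 177 and 18.9 FPKM in WT, so the groups overlapped. Its log2 difference was -2.36 with a standard error of 1.46 (limma adjusted p = 0.714), and it was -0.78 without WT replicate 1 and -0.84 without Asxl1-/- replicate 1. Tenocyte markers summed to 94.8 and 126 FPKM in Asxl1-/- and 337 and 77.1 FPKM in WT, but nearly all of each sum was Egr1, a gene induced early by many stimuli. The other 4 did not share an order. The tendon regulator Scx was highest in WT replicate 1, at 6.49 FPKM, and Thbs4 was listed at 0 in every other library. Mkx was lowest in WT replicate 1, at 0.330 FPKM, and highest in WT replicate 2, at 4.98 FPKM, and Tnmd was highest in Asxl1-/- replicate 1, at 0.940 FPKM. Chondrocyte markers summed to 6.39 and 9.25 FPKM in Asxl1-/- and 22.8 and 9.71 FPKM in WT, with 10.2 FPKM of the sum in WT replicate 1 from Comp. The defining cartilage gene Acan reached at most 0.0265 FPKM. Cenpp, which overlaps Aspn, stood at 2.28 and 3.90 FPKM in Asxl1-/- and 10.7 and 5.20 FPKM in WT. The part of either in the level of Aspn was not tested.

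Dcn and Prelp, like Lum and Kera, each had their highest level in Asxl1-/- replicate 2. Decorin coats collagen fibrils and binds TGF-beta and growth factor receptors. Dcn stood at 28.6 and 620.4 FPKM in Asxl1-/- and at 66.6 and 61.8 FPKM in WT. The WT libraries differed by little, while the Asxl1-/- libraries lay on either side of them and 21.7-fold apart. The log2 difference was 1.06 with a standard error of 1.47 (limma adjusted p = 0.871), and it was -1.14 without Asxl1-/- replicate 2 and 3.25 without Asxl1-/- replicate 1. Prelp, a class II protein whose basic tail binds heparan sulfate and which links collagen to basement membranes, stood at 17.3 and 128.0 FPKM in Asxl1-/- and at 12.001 and 29.5 FPKM in WT, with overlap. Its log2 difference was 1.29 with a standard error of 1.04 (limma adjusted p = 0.772), and -0.12 without Asxl1-/- replicate 2. In both groups Prelp, Omd and Podn were higher in replicate 2, the library with more macrophage marker RNA. Ogn was lower in replicate 2 of both groups. Dcn, Lum, Fmod, Aspn and Kera were higher in replicate 2 of Asxl1-/- and lower in that of WT, and Bgn did the reverse. The share of all genes higher in replicate 2 of both groups was not counted. The part of macrophages in these levels was not tested. Kera was listed at 0 in Asxl1-/- replicate 1 and WT replicate 2, stood at 0.176 FPKM in WT replicate 1, and reached 2.28 FPKM in Asxl1-/- replicate 2.

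Bgn itself stood at 2516 and 2397 FPKM in Asxl1-/- and at 1682 and 2365 FPKM in WT. The groups did not overlap, yet the lower Asxl1-/- library and WT replicate 2 were nearly equal. The means were 2456 ± 83.9 FPKM in Asxl1-/- and 2024 ± 483 FPKM in WT (SD, n = 2 each). Its log2 difference was 0.30 with a standard error of 0.31 (limma adjusted p = 0.820). It was 0.05 without WT replicate 1 and 0.93 after quantile normalization. The ratio of Bgn to Ogn, the 2 highest members in 3 of the 4 libraries, was 12.3 and 17.3 in Asxl1-/- against 3.13 and 7.52 in WT. With Bgn higher and Ogn lower without overlap, this ratio had to be higher in both Asxl1-/- libraries, so it adds no separate result. It does not depend on a single scaling factor per library, but quantile normalization can change it.

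In the authors' deposited table all 10 members were tested with Cuffdiff and 0 were marked significant, where 0.939% of 12881 genes were (0.543% higher and 0.396% lower in Asxl1-/-). An unadjusted p under 0.05 was given there to 4 members, 2 higher and 2 lower, where 7.34% of all genes had one (3.22% higher and 4.11% lower). In the authors' deposited table Dcn had group values of 408 FPKM in Asxl1-/- and 74.3 FPKM in WT (log2 fold change 2.46, q = 0.125). Prelp had 91.4 and 24.3 FPKM in the authors' deposited table, Asxl1-/- before WT (log2 fold change 1.91, q = 0.144). Fmod (log2 fold change -1.25, q = 0.626) and Podn (-1.62, q = 0.635) were lower in the authors' deposited table. These group values rest on the same libraries, and for Dcn they do not show that WT lay between the Asxl1-/- replicates. For Ogn, Omd and Aspn the authors' deposited table gives a single locus, 49464059 to 49652731 on chromosome 13, which is that of Cenpp. In the authors' deposited table Ogn had a log2 fold change of -1.19 and a p of 0.0556, and Omd one of -1.20 and a p of 0.662.

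The third question was how far the replicates of a group shared their levels. On the log2(FPKM + 1) scale the gap between Asxl1-/- replicates 1 and 2 was at least 2 for 5 of the 9 tested members (Dcn, Fmod, Aspn, Prelp and Lum), or 55.6%, where 3.93% of all genes tested had such a gap. All 5 were higher in replicate 2. Between the WT replicates it was at least 2 for Aspn alone (11.1%), where 3.74% of all genes had one. The median size of the gap was 2.74 for the members and 0.31 for all genes in Asxl1-/-, and 0.73 for the members and 0.38 for all genes in WT. Ogn, Omd, Podn and Bgn had gaps of at most 0.77 in Asxl1-/- and at most 1.11 in WT. Ranked by the residual spread within groups, 1.10% of all genes tested had a larger one than Dcn, 1.47% than Fmod, 25.4% than Ogn and 59.7% than Bgn. Asxl1-/- replicate 1 was the lowest library for 7 of the 10 members, counting Kera, which was tied at 0 with WT replicate 2, and Asxl1-/- replicate 2 the highest for 4. The shares of all genes lowest or highest in these libraries were not counted. No test between cultures is possible with 1 library each.

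**Figure D4:**
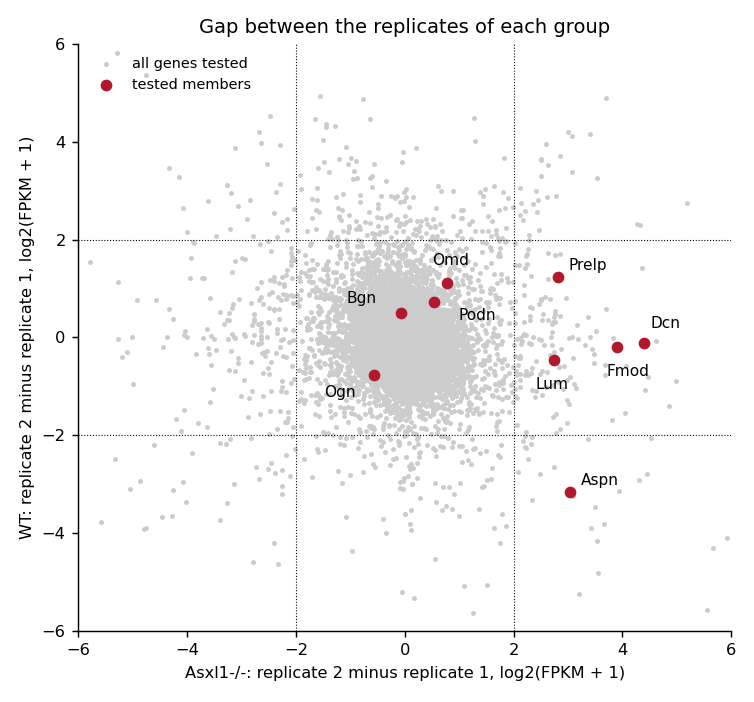
Gap between replicates 1 and 2 on the log2(FPKM + 1) scale, in Asxl1-/- (horizontal axis) and in WT (vertical axis), for the 9 tested members (red) and 11452 of the 11485 genes tested (grey), with 33 genes beyond the axes. Dotted lines mark a gap of 2. Dcn, Fmod, Aspn, Prelp and Lum lie to the right of the line, and Ogn, Omd, Podn and Bgn lie near the centre.

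Neighbours along a chromosome did not all share a pattern. On chromosome 10, Dcn, Lum, Kera and Epyc were each highest in Asxl1-/- replicate 2, and Epyc was listed at 0 in the other 3 libraries with 0.159 FPKM in that one. Ecm2 on chromosome 13 and Prelp on chromosome 1 were also highest in Asxl1-/- replicate 2, and the share of all genes highest there was not counted. Dcn and Lum were both lowest in Asxl1-/- replicate 1. On chromosome 13, Ogn and Omd were lower in both Asxl1-/- libraries, but Ogn was highest in WT replicate 1 and Omd in WT replicate 2. Ecm2, which stood at 0.338 and 2.30 FPKM in Asxl1-/- and 1.59 and 0.490 FPKM in WT, and Aspn had overlapping groups. On chromosome 1, Prelp and Fmod parted in Asxl1-/- replicate 1, where the ratio of Prelp to Fmod was 207, against 8.46 in Asxl1-/- replicate 2 and 0.569 and 1.60 in WT. The ratio of 207 rests on an Fmod level of 0.0837 FPKM and is imprecise.

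**Figure D5:**
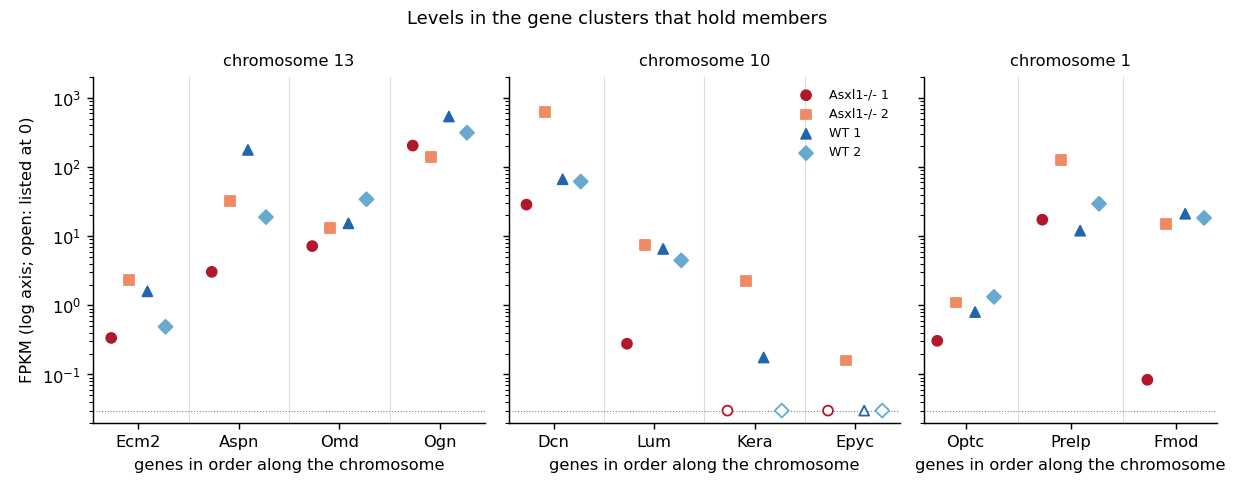
FPKM (log axis) of the genes of 3 clusters in order along chromosomes 13, 10 and 1, in Asxl1-/- replicates 1 and 2 and WT replicates 1 and 2. Open symbols on the dotted line mark values listed at 0. The genes of chromosome 10 are each highest in Asxl1-/- replicate 2, as are Ecm2 and Prelp. Ogn and Omd on chromosome 13 are lower in both Asxl1-/- libraries.

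Of 7 further family genes, 3 entered the test and 0 passed by limma. Among these 3, 1 (Podnl1) had an unadjusted limma p under 0.05, against 7.91% of all genes. Podnl1, the relative of Podn in class V, stood at 2.58 and 0.192 FPKM in Asxl1-/- and at 6.15 and 8.97 FPKM in WT, without overlap (log2 difference -2.03, standard error 0.61, limma adjusted p = 0.564). Podn and Podnl1, the genes of class V, were thus lower in both Asxl1-/- libraries, where 25.2% of all genes were. So few genes give no result about the class. Tsku (tsukushi), a class IV protein that binds BMP and Wnt pathway proteins, stood at 13.2 and 10.6 FPKM in Asxl1-/- and 9.19 and 13.1 FPKM in WT (log2 difference 0.10, standard error 0.28). Optc had 0.307 and 1.10 FPKM in Asxl1-/- against 0.799 and 1.33 FPKM in WT. Chad had 0.129 and 0.0556 FPKM in Asxl1-/- against 0.186 and 0.243 FPKM in WT.

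Genes that build the sugar chains were measured beside the core proteins, and 0 of them passed by limma. Of 10 tested genes for the xylose linker and sulfate supply, 5 were higher and 1 was lower in both Asxl1-/- libraries, against 15.6% and 25.2% of all genes. Of the 10, 2 had an unadjusted limma p under 0.05, both higher, where 2.51% of all genes were higher at that p, and the median log2 difference was 0.13 against -0.07. Papss2, which makes the sulfate donor, stood at 11.1 and 14.4 FPKM in Asxl1-/- and 5.78 and 6.50 FPKM in WT (log2 difference 0.94, standard error 0.25). Pxylp1, a phosphatase that acts on the xylose of the linker, stood at 36.0 and 21.7 FPKM in Asxl1-/- and 10.3 and 15.4 FPKM in WT. B3gat3, which adds the glucuronic acid of the linker, stood at 20.4 and 21.8 FPKM in Asxl1-/- and 15.5 and 12.7 FPKM in WT. These 3 had the smallest p of their list, and all lay higher in both Asxl1-/- libraries.

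Of 12 tested genes for chondroitin and dermatan sulfate chains, 4 were higher and 2 lower in both Asxl1-/- libraries, against 15.6% and 25.2% of all genes. Of the 12, 1 had an unadjusted limma p under 0.05, against 7.91% of all genes, and the median log2 difference was 0.04. Chst15, which adds a second sulfate to chondroitin, stood at 21.4 and 13.4 FPKM in Asxl1-/- and 2.67 and 6.89 FPKM in WT (log2 difference 1.74, standard error 0.47, limma adjusted p = 0.553). Dse, the epimerase that turns chondroitin into dermatan sulfate, stood at 33.5 and 48.5 FPKM in Asxl1-/- and 26.7 and 25.3 FPKM in WT. Chst12, a chondroitin sulfotransferase, stood lower, at 21.4 and 23.7 FPKM in Asxl1-/- and 39.1 and 28.3 FPKM in WT. Of 5 tested genes for keratan sulfate, 2 were higher (40.0%) and 1 lower (20.0%) without overlap, against 15.6% and 25.2% of all genes. The galactosyltransferase gene B4galt4 stood at 8.53 and 6.71 FPKM in Asxl1-/- and 2.47 and 3.36 FPKM in WT (log2 difference 1.14, standard error 0.28, limma adjusted p = 0.539). B3gnt2, which extends the chain, stood at 17.3 and 10.3 FPKM in Asxl1-/- and 9.0013 and 9.4994 FPKM in WT. The sulfotransferase gene Chst2 stood at 2.92 and 1.85 FPKM in Asxl1-/- and 4.38 and 4.03 FPKM in WT. Chst5 and B3gnt7 reached at most 0.167 FPKM.

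Partners of the proteoglycans in the matrix were also followed, and 0 of them passed by limma. Bmp1, the tolloid proteinase that trims the propeptides of Bgn and Ogn, stood at 139 and 56.5 FPKM in Asxl1-/- and 37.9 and 66.7 FPKM in WT, with overlap. Pcolce, which enhances the cleavage of procollagen by Bmp1, stood at 738 and 566 FPKM in Asxl1-/- and 641 and 469 FPKM in WT, with overlap. Of 9 tested proteases that can cut the family, 2 were higher (22.2%) and 1 was lower (11.1%) without overlap, against 15.6% and 25.2% of all genes. Mmp14, a membrane-bound collagenase, stood at 356 and 293 FPKM in Asxl1-/- and 219 and 250.3 FPKM in WT. Htra1, a secreted serine protease, stood at 46.3 and 46.6 FPKM in Asxl1-/- and 46.2 and 11.6 FPKM in WT. It counts as higher, yet WT replicate 1 nearly equalled both Asxl1-/- libraries. With 1 library left out its log2 difference ran from 0.01 to 1.91. The gelatinase gene Mmp9 stood at 0.0498 and 0.0805 FPKM in Asxl1-/- and 3.72 and 0.990 FPKM in WT (log2 difference -1.52, standard error 0.57). Mmp9 reached the mean of 1 FPKM only through WT, so its direction was fixed by the filter.

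Of 10 tested ligands and receptors known to bind a member, 6 were lower and 0 higher in both Asxl1-/- libraries, or 60.0%, where 25.2% of all genes were lower, with a median log2 difference of -0.56. At an unadjusted limma p under 0.05 there were 3, all lower, where 5.41% of all genes were. Tlr2, an innate immune receptor through which soluble biglycan signals, stood at 1.10 and 2.39 FPKM in Asxl1-/- and 14.8 and 6.75 FPKM in WT (log2 difference -2.05, standard error 0.47, limma adjusted p = 0.514). Tgfb2, a ligand held by decorin and biglycan, stood at 7.10 and 4.55 FPKM in Asxl1-/- and 14.8 and 9.75 FPKM in WT (log2 difference -0.96, standard error 0.34). Met, a receptor that decorin antagonizes, stood at 5.86 and 4.23 FPKM in Asxl1-/- and 40.8 and 10.5 FPKM in WT, and is marked significant in the authors' deposited table.

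Among the 9 tested collagens that the family binds, 4 were lower (44.4%) and 1 was higher (11.1%) in both Asxl1-/- libraries, against 25.2% and 15.6% of all genes. Of the 9, 3 had an unadjusted limma p under 0.05, all lower, where 5.41% of all genes were lower at that p, and the median log2 difference was -0.37. Those with the smallest p were the microfibrillar collagen genes Col6a2 and Col6a1, then Col11a1. Col6a2 stood at 170.4 and 189.9 FPKM in Asxl1-/- and 300.01 and 351 FPKM in WT (log2 difference -0.85, standard error 0.25, limma adjusted p = 0.564), and Col6a1 at 236 and 306 FPKM in Asxl1-/- and 435 and 508 FPKM in WT. Col11a1, a nucleator of cartilage fibrils, stood at 0.177 and 7.07 FPKM in Asxl1-/- and 53.7 and 13.2 FPKM in WT, and is marked significant in the authors' deposited table (log2 fold change -3.06, q = 0.00836). Its order over the 4 libraries, lowest in Asxl1-/- replicate 1 and highest in WT replicate 1, is that of Fmod, and not that of Ogn, Omd or Podn. Few orders are possible with 4 libraries, and the share of all genes with this order was not counted. The ratio of Col1a1, the main fibrillar collagen, to Bgn was 0.554 and 0.582 in Asxl1-/- and 0.772 and 0.864 in WT. Col1a1 itself had overlapping groups, at 1395 and 1395 FPKM in Asxl1-/- and 1298 and 2043 FPKM in WT. This pair was picked after its values were seen, and the ratios of the other collagens to Bgn were not computed. Of the 4 large chondroitin sulfate proteoglycans, Vcan (versican) alone entered the test, at 181 and 49.9 FPKM in Asxl1-/- and 162 and 111 FPKM in WT.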

How the data were processed

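RNA from 2 Asxl1-/- and 2 WT libraries of cultured mouse MSPC was sequenced, and groups were read from the genotype label. Replicate numbers follow accession order and pair no samples. Per the submitters' processing notes, reads were processed on mm10 with Cufflinks (version 2.2.1), Cuffdiff and TopHat2 (version 2.0.3). For gene annotation and library kit, nothing is given in the sources used here. The deposited FPKM values come from Cufflinks, per the file headers. The authors' deposited Cuffdiff table gives a log2 fold change, a p-value and a q-value per gene. A log copy of the FPKM table was not used, and 4 columns without a matching sample (2 in the FPKM table and 2 in its log copy) were left out.

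For a symbol with several rows the one with the highest mean was kept. Genes averaging 1 FPKM or more were tested with limma (version 3.58.1, in R 4.3.3; eBayes with trend, two-sided, Benjamini-Hochberg adjustment over all genes) on log2(FPKM + 1), genotype as the one term. Fold changes on this scale understate those of low genes. The script was tested on simulated data. Starts are 1 above the file's: with 1 added 11996 of 22589 symbols matched a GENCODE transcript start, against 1033 without. All 160 symbols of the 22 lists matched a row. Promoter windows were read from RefSeq. Tables and figures were made with pandas 2.3.3 and matplotlib 3.10.9 (Python 3.11.15, numpy 2.4.6).

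The members and lists were chosen with earlier results of these data known. The rule for named genes takes Asxl1, every member, other family genes above 0.1 FPKM in any library, and the 3 genes with the smallest p of each list of chain, protease, partner and collagen genes. Other genes (Lepr, Eng, Nt5e, Pdgfra, Cxcl12, Pdgfrb, Col3a1, Fcer1g, Cdh5, Spp1, Bglap, Bglap2, Ibsp, Runx2, Alpl, Dmp1, Comp, Scx, Mkx, Tnmd, Thbs4, Egr1, Acan, Cenpp, Chst5, B3gnt7, Col1a1, Mmp3 and Mmp13) were named after their values were seen. Gene lists are described by counts, and marker lists by summed levels. Alternatives were other pseudocounts, filters, scalings and eBayes settings, and each library left out.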

Additional observations from a re-analysis of the deposited data

How the results depend on the processing

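No member passed the adjusted limma threshold in any of the 13 alternatives run. Of all genes, 3 were called with all 4 libraries, 1 with no filter, and 0 without rows under 300 bp, where 918 had an unadjusted limma p under 0.05. With 1 library left out the count ran from 1 (without Asxl1-/- replicate 2) to 8 (without Asxl1-/- replicate 1). A lone library is then assumed to vary like the other group. In these 4 fits the median log2 difference of the 9 members ran from -1.55 to -0.36. Members without overlap numbered 4 to 7 lower and 1 to 4 higher, with 7 lower without Asxl1-/- replicate 2 and 4 higher without Asxl1-/- replicate 1. The share of all genes in these fits was 38.0% to 45.3% lower and 28.0% to 31.0% higher, and for the 4 lower members without Asxl1-/- replicate 1 (44.4%) it was 40.0%, so that count is near the share of all genes. With 2 libraries set against 1, fewer orders are possible, so more genes are free of overlap by construction.

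The sign turned for Dcn (-1.14 to 3.25), Lum (-2.33 to 0.42) and Prelp (-0.12 to 2.70) with 1 library left out, as described above, and for no other tested member in these fits. No alternative pseudocount, filter, scaling or eBayes setting turned the sign of a member it kept in the test. At a pseudocount of 0.1 Fmod moved to -3.56 and Lum to -1.69, and Bgn moved with quantile normalization, to 0.93. Asxl1 ran from -5.04 at a pseudocount of 0.1 to -3.24 without WT replicate 1. Kera had a log2 difference of 0.74 with no filter (limma adjusted p = 0.813). No paired analysis was possible because the labels give the libraries no shared number. With 2 libraries a group, the spread within groups limits what can be called. Read numbers are unknown, so no counting interval is given.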

Other observations

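A pair of matrix protease genes, picked once their values were known, parted the replicates of each group. The collagenase gene Mmp13 stood at 84.6 and 2.89 FPKM in Asxl1-/- replicates 1 and 2 and at 0.633 and 115 FPKM in WT replicates 1 and 2. The stromelysin gene Mmp3, on chromosome 9 like Mmp13, stood at 24.8 and 0.529 FPKM in Asxl1-/- and at 1.59 and 15.2 FPKM in WT. Both genes were thus high in Asxl1-/- replicate 1 and WT replicate 2 and low in the other 2 libraries.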
